A study of Homo sapiens with 6 samples.

Results

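SETD7 and 9 further genes that place methyl groups on lysine 4 of histone H3 (H3K4), or help to do so, were followed in human endothelial cells in which SETD7 had been knocked down. The 10 genes were SETD7, SETD1A, SETD1B, MLL (now KMT2A), MLL3 (now KMT2C), ASH1L, SMYD3, WDR5, ASH2L and RBBP5, chosen by the symbol given in each row of the count table, and all 10 were found among its 18544 genes. The cells were HMEC-1, an established line of immortalised dermal microvascular endothelium, grown in MCDB131 with glucose at a normal 5.5 mM. They carried a lentivirus with either a hairpin RNA against SETD7 (Set7KD, n = 3) or a non-targeting hairpin (NTC, n = 3), so both groups had received virus and hairpin, and the labels name no second hairpin against SETD7 and no untreated cells. Each group is described as a biological triplicate. The labels do not tie its libraries to transductions of their own, and every p-value here rests on the spread among these libraries alone, which may be technical.

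H3K4 carries up to 3 methyl groups, and the enzymes that add them differ in how many they place. SETD7, also called Set7, adds a single one and also methylates many proteins that are not histones. The enzymes of the SET1 and MLL families work inside large complexes built on a shared core of WDR5, RBBP5, ASH2L and DPY30. The trimethylated form marks promoters of active genes, and the monomethylated form is found at enhancers.

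Counting precision was similar in all libraries. Gene counts per library ran from 16385878 to 16953331, and a single count was worth 0.059 to 0.061 CPM before trimmed-mean (TMM) factors. All other CPM are gene counts scaled to a fixed total per library, with these factors. All 10 members passed the filter on low counts, and the lowest count of any member in any library was 254, for SMYD3. Of all 18482 genes tested, edgeR called 36.2% at an adjusted p under 0.05, 17.6% higher and 18.6% lower in Set7KD, and the counts of called genes here and below stand beside these shares. Of 12 endothelial markers, 10 were analysed here, of which 3 were called higher and 3 lower with a median log2 fold change of 0.15, and the lowest mean in NTC was that of ESAM at 1.07 CPM. CDH5, the junctional cadherin of endothelium, fell from 206 ± 32.1 to 119 ± 11.4 CPM (edgeR adjusted p = 0.00371; here and below, mean ± SD with n = 3 libraries, NTC first). ROBO4 and TIE1 were the other lower markers, and KDR, TEK and ENG were higher, with log2 fold changes of 0.68, 0.38 and 0.30. PECAM1 and CLDN5 were not analysed here. The summed level of the endothelial list was 614 to 766 CPM in NTC and 566 to 601 CPM in Set7KD. Of 10 fibroblast markers 7 were analysed here, which summed to 1506 to 2070 CPM in NTC and 3224 to 4183 CPM in Set7KD (5 of 7 called higher). COL1A1 made up most of that sum, with 1555 ± 270 and 2861 ± 395 CPM. By fold, COL3A1, POSTN and COL1A2 rose more (6.66, 5.65 and 4.91) than COL1A1 (1.84) and PDGFRA (1.78). COL3A1 went from 12.8 ± 0.82 to 85.2 ± 8.91 CPM and COL1A2 from 149 ± 5.59 to 733 ± 98.8 CPM. The median log2 fold change of the 7 was 0.88. THY1 (55.6 ± 8.64 and 56.9 ± 3.64 CPM) and LUM did not pass. Of 12 smooth muscle and pericyte markers 11 were analysed here, which summed to 683 to 762 and 1056 to 1353 CPM (5 of 11 called higher). The called genes were ACTG2, CNN1, TAGLN, LMOD1 and NOTCH3, with log2 fold changes of 4.79, 3.21, 2.52, 0.70 and 0.31. ACTG2 went from 0.941 ± 0.514 to 26.4 ± 7.32 CPM and TAGLN from 96.3 ± 16.8 to 551 ± 116 CPM. ACTA2, MYH11, PDGFRB, RGS5, CSPG4 and MCAM were not called, and the median of the 11 was 0.30. Of 8 leukocyte markers only 2, CD14 and CD68, were analysed here, which summed to 36.1 to 38.7 and 21.5 to 28.2 CPM (2 of 2 called lower). Of 8 epithelial markers 4 were summed, to 222 to 264 and 229 to 251 CPM, and 1 of the 3 tested was called lower. No marker that was analysed stood at 0. Fewer cells of a type and less RNA per cell cannot be told apart in such bulk samples. The part of these markers in the values below was not tested.

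SETD7 (ENSG00000145391.7, chromosome 4) was lower in every library labelled Set7KD. It had 180, 178 and 176 CPM in NTC replicates 1, 2 and 3, and 27.8, 43.8 and 26.7 CPM in Set7KD replicates 1, 2 and 3. The groups were far from overlapping, and Set7KD replicate 2 kept the most SETD7, at 24.6% of the NTC mean against 15.6% and 15% in replicates 1 and 3. The log2 fold change was -2.44 (SE 0.21, 95% interval -2.99 to -1.9), with an edgeR adjusted p of 0.000927. Of the 18482 genes tested, 14 had a lower log2 fold change. With each library left out in turn the value lay between -2.71 and -2.31 and the call was kept.

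Short stretches of the SETD7 transcript are shown because the hairpin was directed at this gene. An earlier look at these data had linked the 7-base words ATGAATC and TGAATCA in 3′ UTRs to lower fold changes, and the search was repeated here for the members on the sense strand of GENCODE 29 transcripts. Each line gives 29 bases of a 3′ UTR, 5′ to 3′, with the word in capitals. The words share the 6 bases TGAATC.
SETD7, bases 1306 to 1312 of the 3′ UTR: gattgctctgaATGAATCctgagagtttt
SETD7, bases 4406 to 4412 of the 3′ UTR: gggcctgagagTGAATCAgaggcattaga
WDR5, bases 1469 to 1475 of the 3′ UTR: tggagtcctggATGAATCctgcaggtttt
The 3′ UTRs of the 8 other members had no match. Of 12991 tested genes with an annotated 3′ UTR, 17.5% held a match. Genes with a match had a median log2 fold change of -0.07 and a median 3′ UTR of 3113 bases, against 0.00 and 1094 bases without one. The words were chosen for such a link in these same data, so the lower median is no new evidence of it. WDR5, the only other member with a match, had a log2 fold change of 0.15, and its relation to the match was not tested. The hairpin's own sequence was not used here, and a match is no evidence of binding.

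Away from SETD7, differences among the members were small. Of the 9 other genes, 4 fell, 1 rose and 4 did not pass (edgeR adjusted p under 0.05). Among all 18482 genes tested, 36.2% were called, 18.6% lower and 17.6% higher. The median log2 fold change of the 9 was -0.11, with a range of -0.49 to 0.15, beside a median of -0.01 over all genes tested. Their median absolute log2 fold change was 0.15 and that of all genes 0.21. The highest library of a group lay below the lowest of the other for 5 of the 9, which were the 5 called. Of all genes, 47.4% were separated in this way (24.1% lower and 23.3% higher in Set7KD). With the replicate number as a block the 9 gave the same counts, while 42.8% of all genes were called. DESeq2 called 3 members lower (SETD7, SMYD3 and RBBP5) and 0 higher, beside 29.7% of all genes. These counts depended on the libraries used. Members called lower, SETD7 included, numbered 5 with all libraries and 3 without NTC replicate 1, without Set7KD replicate 2 or without Set7KD replicate 3, and SETD7 and SMYD3 alone were called lower in every fit with a library left out.

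**Figure D1:**
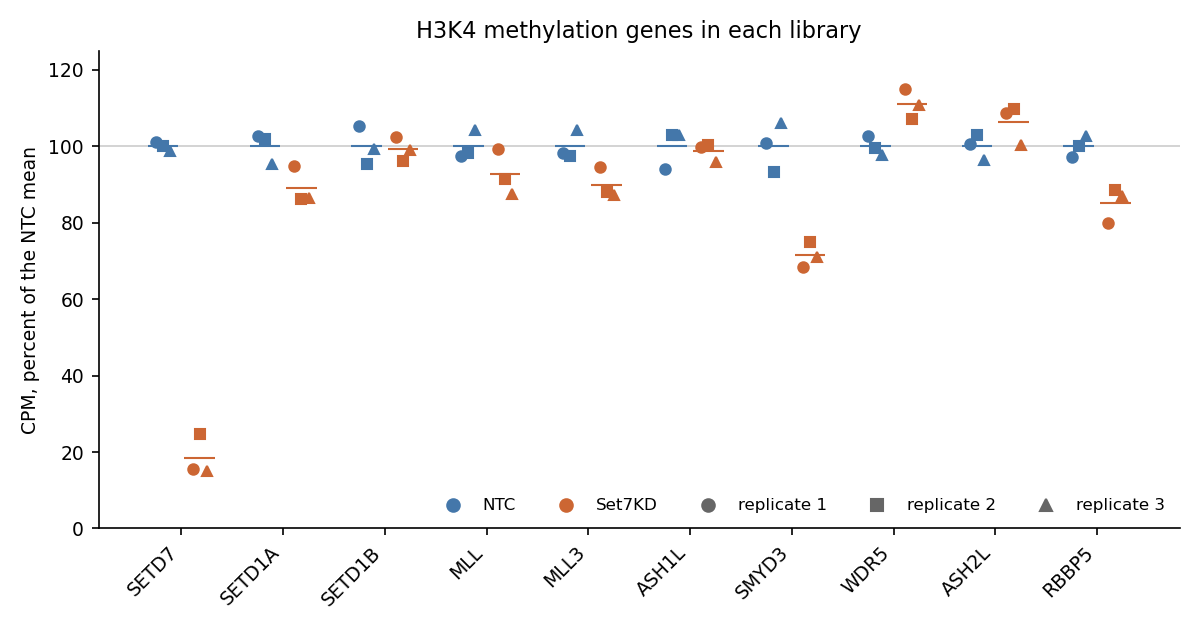
CPM of the 10 genes in each library as a percent of that gene's NTC mean; points are libraries (shape gives the replicate number) and short lines are group means. SETD7 in Set7KD lies at 15% to 24.6% of its NTC mean, while the means of the other 9 genes stay between the 28.6% decrease of SMYD3 and the 11% rise of WDR5.

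SMYD3 (ENSG00000185420.14, chromosome 1), a SET and MYND domain methyltransferase first described as an H3K4 enzyme that also acts on cytoplasmic kinases, fell most among the 9. The NTC libraries had 22.7, 21 and 23.9 CPM against 15.4, 16.9 and 16 CPM in the knockdown. Every Set7KD library lay below every NTC library. The log2 fold change was -0.49 (SE 0.09, 95% interval -0.67 to -0.3; edgeR adjusted p = 0.000557), a fold of 0.714. The call was kept with each library left out, with adjusted p up to 0.00636, and by DESeq2 at 0.00034. Its relatives SMYD2, SMYD4 and SMYD5 were not called: SMYD2 averaged 38.2 ± 1.85 CPM in NTC against 38.8 ± 1.17 CPM in the knockdown.

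SETD1A and SETD1B are the alternative catalytic subunits of the SET1 complexes, which account for most H3K4 trimethylation in mammalian cells. SETD1A (ENSG00000099381.12, chromosome 16) had 82.4, 81.9 and 76.7 CPM in the NTC libraries against 76.1, 69.3 and 69.4 CPM in the knockdown. The highest Set7KD library stood just under the lowest NTC library. The log2 fold change was -0.17 (SE 0.06, 95% interval -0.29 to -0.04; adjusted p = 0.0401). The call was lost with DESeq2 (adjusted p = 0.109) and without NTC replicate 1 (0.143), without NTC replicate 2 (0.106), Set7KD replicate 2 (0.0936) or Set7KD replicate 3 (0.146). SETD1B (ENSG00000139718.5, chromosome 12) had 53.7, 48.7 and 50.6 CPM in the NTC libraries against 52.3, 49.0 and 50.5 CPM in the knockdown. The groups overlapped fully, and the log2 fold change of -0.01 had a 95% interval of -0.15 to 0.12 (adjusted p = 0.91).

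MLL and MLL3 belong to different branches of the MLL family: MLL acts with menin at promoters, and MLL3 mainly places the single methyl group at enhancers. MLL (ENSG00000118058.15, chromosome 11) had 271, 273 and 290 CPM in the NTC libraries against 276, 254 and 243 CPM in the knockdown. Set7KD replicate 1 lay within the NTC range. The log2 fold change of -0.11 (95% interval -0.23 to 0.01) did not pass, at an adjusted p of 0.141. MLL3 (ENSG00000055609.13, chromosome 7) had 133, 132 and 141 CPM in the NTC libraries against 128, 119 and 118 CPM in the knockdown. All Set7KD libraries were lower than all NTC libraries. Its log2 fold change was -0.15 (SE 0.06, 95% interval -0.27 to -0.04; adjusted p = 0.0411). The call was lost with DESeq2 (0.106), with upper-quartile normalization (0.0521) and without NTC replicate 1 (0.0837), without NTC replicate 3 (0.127), Set7KD replicate 2 (0.0856) or Set7KD replicate 3 (0.162). Parts of MLL3 have near-identical copies elsewhere in the genome, so its counts are uncertain to that extent.

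ASH1L (ENSG00000116539.6, chromosome 1), a large SET domain enzyme now known mainly for methylating lysine 36 of histone H3, had 146, 160 and 160 CPM in the NTC libraries against 155, 156 and 149 CPM in the knockdown. The ranges overlapped. The log2 fold change of -0.02 had a 95% interval of -0.14 to 0.09 (edgeR adjusted p = 0.772). An antisense gene lies over part of ASH1L, and no source used here says whether the counting used strand.

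The 3 core subunits did not move together. WDR5 (ENSG00000196363.4, chromosome 9), the propeller protein that holds the enzyme in the complex, had 69.9, 67.8 and 66.5 CPM in the NTC libraries against 78.2, 73.0 and 75.5 CPM in the knockdown. It was higher in every Set7KD library, with a log2 fold change of 0.15 (SE 0.06, 95% interval 0.03 to 0.27) and an adjusted p of 0.0485, close to the threshold. The call was lost with DESeq2 (0.108), with limma-voom (0.051) and without NTC replicate 1 (0.0787), without NTC replicate 2 (0.102), NTC replicate 3 (0.112), Set7KD replicate 1 (0.172) or Set7KD replicate 3 (0.0852). RBBP5 (ENSG00000117222.9, chromosome 1), which together with ASH2L activates the enzyme, had 45.7, 47.1 and 48.3 CPM in the NTC libraries against 37.6, 41.7 and 40.9 CPM in the knockdown. The groups did not overlap, and RBBP5 fell by 0.23 on the log2 scale (SE 0.07, 95% interval -0.37 to -0.09; adjusted p = 0.0128). DESeq2 kept this call at 0.0385, and it was lost without Set7KD replicate 1 (0.0894). ASH2L (ENSG00000129691.10, chromosome 8) had 71.6, 73.3 and 68.6 CPM in the NTC libraries against 77.4, 78.2 and 71.4 CPM in the knockdown. Set7KD replicate 3 lay within the NTC range, and the log2 fold change of 0.09 (95% interval -0.04 to 0.21) did not pass, at an adjusted p of 0.262. DPY30, the remaining core subunit, averaged 33.7 ± 0.456 CPM in NTC against 35.0 ± 1.41 CPM in the knockdown (adjusted p = 0.566).

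**Figure D2:**
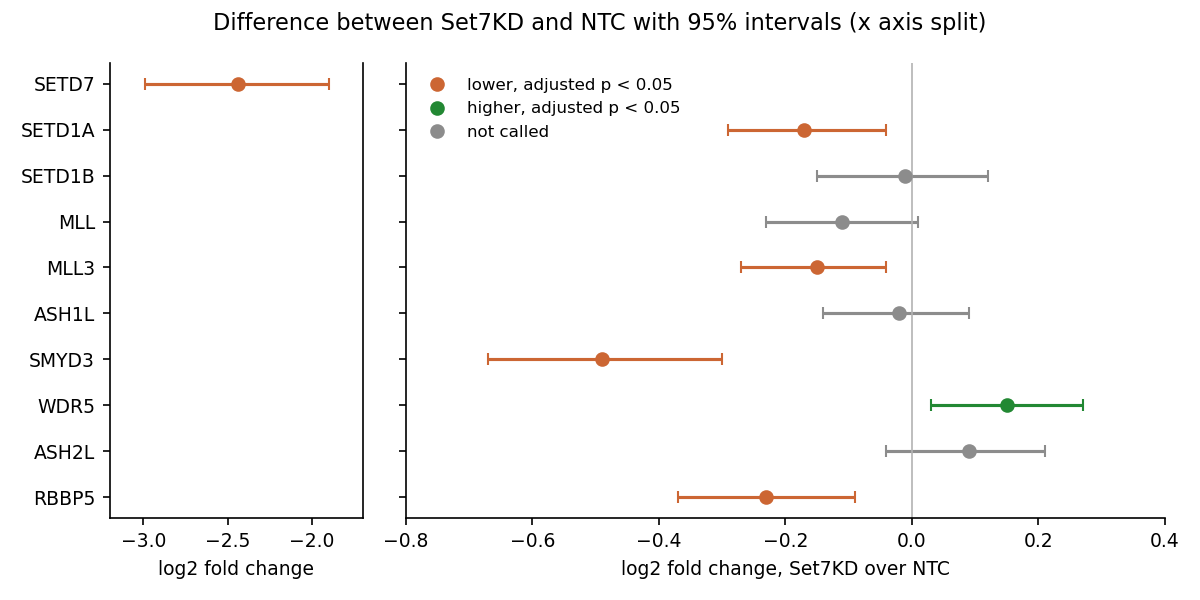
Log2 fold change of Set7KD over NTC from edgeR with 95% intervals for the 10 genes, on an x axis split so that SETD7 has a panel of its own; colour gives the call. SETD7 is at -2.44, SMYD3 at -0.49 and RBBP5 at -0.23, while SETD1B, MLL, ASH1L and ASH2L have intervals that include 0.

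SMYD3 and RBBP5 were the members other than SETD7 whose calls DESeq2 also made, and both fell, so their promoters are shown. Both lie on chromosome 1, as does ASH1L, which was not called. Each line gives 300 bases from RefSeq (GRCh38.p14, minus strand) around an annotated start, the last 50 being transcribed, 5′ to 3′, with each CpG in capitals. CpG-rich promoters are the usual place of H3K4 trimethylation.
SMYD3, chr1:246507230-246507529: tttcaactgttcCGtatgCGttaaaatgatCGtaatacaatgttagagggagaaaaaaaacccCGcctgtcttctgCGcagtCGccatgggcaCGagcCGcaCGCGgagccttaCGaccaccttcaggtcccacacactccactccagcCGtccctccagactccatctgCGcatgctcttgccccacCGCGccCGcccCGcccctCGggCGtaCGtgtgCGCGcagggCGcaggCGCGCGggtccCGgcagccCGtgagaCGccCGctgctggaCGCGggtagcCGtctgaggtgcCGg
RBBP5, chr1:205121929-205122228: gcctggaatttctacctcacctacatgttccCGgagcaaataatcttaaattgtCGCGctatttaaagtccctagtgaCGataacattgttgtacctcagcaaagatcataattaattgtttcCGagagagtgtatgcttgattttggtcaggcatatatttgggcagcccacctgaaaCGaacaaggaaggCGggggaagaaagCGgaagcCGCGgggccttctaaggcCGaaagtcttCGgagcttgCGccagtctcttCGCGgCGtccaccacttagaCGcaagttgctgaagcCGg
The SMYD3 window held 34 CpG and the RBBP5 window 18, beside a median of 14 and an interquartile range of 4 to 28 over 35116 promoters of this length. A further annotated start of SMYD3 had 5. Among the other members the windows of SETD7, SETD1A, MLL, MLL3 and ASH1L held 22, 30, 36, 56 and 30, and WDR5 had several starts with 6 to 45. The table used gave 8 of the 10 members. Nothing was measured at these promoters in this series.

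Per transcript length, SETD7 stood highest of the 10 in NTC and lowest in Set7KD. The scale here is CPM per kilobase of the GENCODE 29 transcript with the longest coding sequence. SETD7 had 24.2 ± 0.296 CPM per kb in NTC and 4.45 ± 1.3 CPM per kb in Set7KD. In NTC the order then ran ASH2L (23.0 ± 0.77), WDR5 (21.6 ± 0.538), MLL (16.7 ± 0.63), SMYD3 (14.5 ± 0.948), ASH1L (13.0 ± 0.671), SETD1A (12.5 ± 0.488), RBBP5 (10.7 ± 0.296), SETD1B (8.54 ± 0.431) and MLL3 (8.01 ± 0.297). The NTC libraries of ASH1L and SETD1A overlapped, and so did those of SETD1B and MLL3, so these neighbours are not separated beyond their spread. In Set7KD, ASH2L (24.5 ± 1.2) and WDR5 (24.0 ± 0.821) led and overlapped, followed by MLL (15.5 ± 1.0), ASH1L (12.8 ± 0.275), SETD1A (11.1 ± 0.601), SMYD3 (10.4 ± 0.489), RBBP5 (9.1 ± 0.499), SETD1B (8.47 ± 0.274) and MLL3 (7.21 ± 0.32). SMYD3 thus stood below ASH1L and level with SETD1A, whose libraries it overlapped, and RBBP5 overlapped SETD1B. The place of SETD7 in NTC depended on the length used: over the union of all annotated exons it had 12.8 ± 0.157 CPM per kb and came after WDR5, ASH2L, MLL and ASH1L, overlapping ASH1L and SETD1A. It was lowest in Set7KD with either length.

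**Figure D3:**
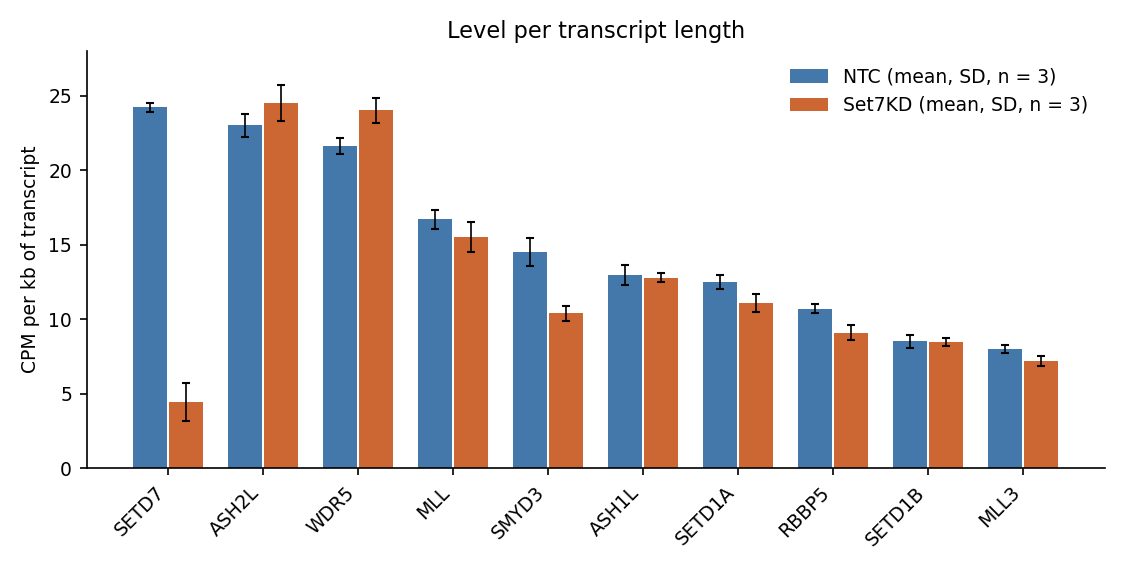
Level per transcript length (CPM per kb of transcript) of the 10 genes, ordered by their level in NTC; bars are group means and error bars SD (n = 3). SETD7 goes from 24.2 in NTC to 4.45 in Set7KD, and MLL3 has the lowest NTC level at 8.01.

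The genes whose levels followed SETD7 most closely over the 6 libraries were not members. By Pearson correlation of log2(CPM + 1) among the 13092 genes averaging 5 CPM or more, the highest values were those of AGBL5 (r = 0.9997), PTPN11 (r = 0.9997), CLMN (r = 0.9993), GPN1 (r = 0.9991) and ENO2 (r = 0.9984), and the lowest were those of NPTN (r = -0.9991), DIXDC1 (r = -0.9988) and ARPC2 (r = -0.9987). PTPN11 had 257, 258 and 257 CPM in the NTC libraries against 164, 185 and 162 CPM in the knockdown. It too was least reduced in Set7KD replicate 2. The genes were picked for their likeness to SETD7 in these libraries, so this shared pattern follows from the choice. The points share the same 6 libraries and the same group difference, and 7.13% of the genes had an r over 0.95. Among the members the r with SETD7 was 0.9712 for SMYD3, 0.9355 for RBBP5 and -0.9389 for WDR5, and 0.0314 for SETD1B.

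Set7KD replicate 2, which kept the most SETD7, was also the Set7KD library nearest to NTC for SMYD3, RBBP5 and WDR5, but not for SETD1A or MLL3, where replicate 1 was nearest. Of all 6690 genes called, 45.2% had replicate 2 as the nearest library, 27.8% replicate 1 and 27% replicate 3. The relation to the SETD7 level left in each library was not tested.

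**Figure D4:**
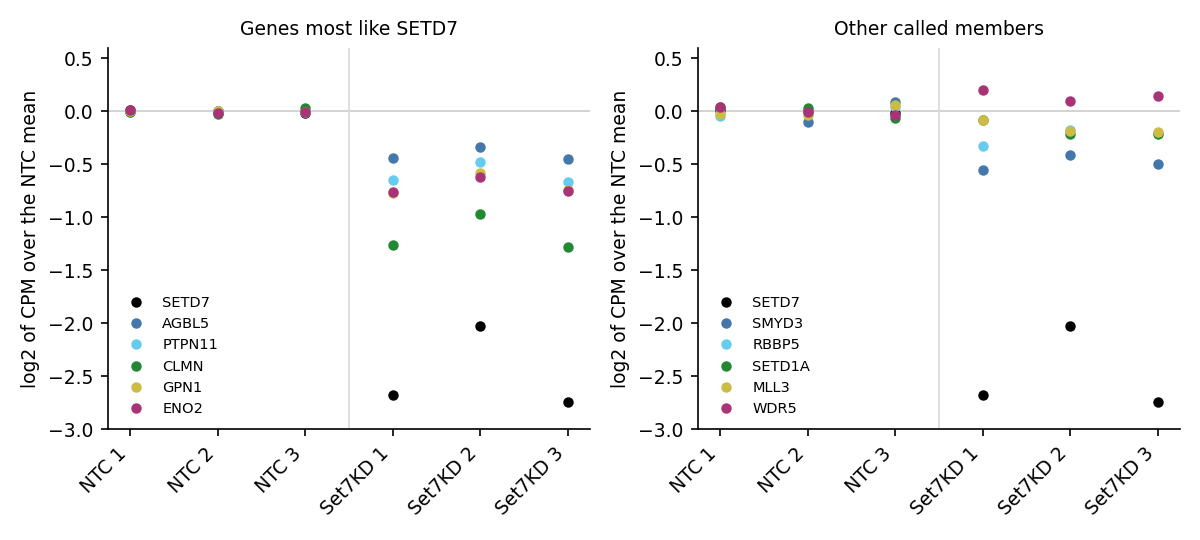
Log2 of CPM over the NTC mean in each of the 6 libraries for SETD7 (black) with the 5 genes of highest correlation (left) and with the 5 other called members (right); each point is a library. SETD7 and the 5 genes on the left are all least reduced in Set7KD replicate 2, which follows from picking the 5 by correlation over these libraries. WDR5 is the only gene drawn above 0 in Set7KD.

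The 6 remaining MLL and SMYD enzymes gave a single call, or 16.7%, beside 36.2% of all genes. The row MLL4 fell from 62.7 ± 3.39 to 53.6 ± 4.27 CPM, a log2 fold change of -0.23 (SE 0.07, edgeR adjusted p = 0.019). The symbol MLL4 has been used for both KMT2B and KMT2D. The row was read as KMT2B because the row MLL2 matched KMT2D by its identifier, and its own identifier had no match. It was called in 3 of the 6 fits with a library left out, and the count of lower genes in this list of 6 was 0 without NTC replicate 1, without NTC replicate 3 or Set7KD replicate 2, and 2 without Set7KD replicate 1. MLL2 (now KMT2D), the partner of MLL3 at enhancers, averaged 189 ± 8.43 CPM in NTC against 164 ± 22.7 CPM in the knockdown (adjusted p = 0.101) and was called with the replicate number as a block (0.0089), which brought the count to 2. MLL5 had 111 ± 3.51 and 115 ± 6.57 CPM. No gene of this list was higher by edgeR, by edgeR at an unadjusted p under 0.05 (0 genes), by DESeq2 or by limma-voom. The median log2 fold change was -0.03.

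Among 14 further subunits of the SET1 and MLL complexes, 2 fell, 1 rose and 11 did not pass, with a median log2 fold change of -0.11. The share called was 21.4%, beside 36.2% of all genes. MEN1, which encodes menin, the subunit that tethers MLL to chromatin, fell from 52.8 ± 1.75 to 41.6 ± 0.795 CPM (log2 fold change -0.34, SE 0.06, adjusted p = 0.000524), and was the only gene of the list called with every library left out. BOD1L1, a SETD1A-associated protein, fell from 227 ± 5.75 to 197 ± 17.3 CPM (adjusted p = 0.0157). Its call was lost without Set7KD replicate 1 or Set7KD replicate 3, when the count of lower genes was 1. WDR5B, an intronless relative of WDR5, rose from 7.37 ± 0.933 to 9.32 ± 0.529 CPM (adjusted p = 0.0427), a call made in 1 of the 6 fits with a library left out. With the replicate block 3 were lower and 2 higher. CXXC1, the CpG-binding subunit of SET1 complexes, averaged 43.4 ± 1.75 CPM in NTC against 39.7 ± 2.7 CPM in the knockdown, and WDR82, which links them to RNA polymerase II, 202 ± 6.01 and 212 ± 1.35 CPM. Neither passed.

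Ubiquitin on histone H2B, placed by RNF20, RNF40 and their partner enzymes with help from the PAF1 complex, stimulates H3K4 methylation. Of 11 genes of this step 1 rose, 1 fell and 9 did not pass, or 18.2% called, beside 36.2% of all genes. Their median log2 fold change was 0.01. UBE2A, a ubiquitin-conjugating enzyme, rose from 110 ± 1.33 to 141 ± 1.79 CPM (log2 fold change 0.36, SE 0.05, adjusted p = 5.61e-05). CDC73, a PAF1 complex subunit, fell from 72 ± 1.7 to 56.7 ± 3.94 CPM (log2 fold change -0.34, SE 0.06, adjusted p = 0.000563). Both were called with each library left out. LEO1, another PAF1 complex subunit, was called lower only without Set7KD replicate 2, which made the count 2. RNF20 had 81 ± 2.33 and 83.5 ± 5.46 CPM and did not pass.

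Proteins that bind methylated H3K4 gave 4 lower genes and 12 without a call among 16, or 25% called, beside 36.2% of all genes called and 18.6% called lower. Their median log2 fold change was -0.03. ING4, an H3K4 trimethyl reader of a histone acetyltransferase complex, fell from 21.8 ± 1.26 to 13.6 ± 1.21 CPM (log2 fold change -0.69, SE 0.1, adjusted p = 5.42e-05). ING1 (log2 fold change -0.27), ING5 (-0.23) and BPTF (-0.18), a subunit of the NURF remodeller, were nearer the threshold with adjusted p of 0.0176, 0.0318 and 0.0212. ING4 alone kept its call with every library left out, and the count of lower readers was 1 without NTC replicate 2 or Set7KD replicate 3 and 2 without Set7KD replicate 1. Higher readers numbered 0 by edgeR, also at an unadjusted p under 0.05, and 0 by DESeq2 and limma-voom. TAF3, a reader within the general transcription factor TFIID, had 31.6 ± 3.16 and 34.9 ± 1.04 CPM.

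Of 6 enzymes that remove H3K4 methyl groups 1 rose, or 16.7%, beside 17.6% of all genes called higher. Their median log2 fold change was 0.03. KDM1A, which takes off the mono- and dimethyl marks, rose from 161 ± 0.938 to 179 ± 1.66 CPM (log2 fold change 0.15, SE 0.05, adjusted p = 0.0252). The count was 0 without NTC replicate 1, without NTC replicate 2, Set7KD replicate 1 or Set7KD replicate 3, and 2 without Set7KD replicate 2 and with the replicate block, which added C14orf169. KDM5A, KDM5B and KDM5C, which remove the trimethyl mark, did not pass: KDM5B averaged 105 ± 1.21 CPM in NTC against 98.1 ± 0.545 CPM in the knockdown. Lower demethylases numbered 0 by edgeR, also at an unadjusted p under 0.05, and 0 by DESeq2 and limma-voom.

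Among 21 SET domain enzymes of other marks 9 were lower, 2 were higher and 10 did not pass, so that 52.4% were called, beside 36.2% of all genes (18.6% lower and 17.6% higher). Their median log2 fold change was -0.06. The paralogs EZH1 and EZH2, which methylate lysine 27 of histone H3, went in opposite directions: EZH1 fell from 54.3 ± 1.98 to 37.5 ± 1.32 CPM (log2 fold change -0.53, SE 0.06, adjusted p = 1.53e-05) and EZH2 rose from 72.5 ± 4.83 to 99.2 ± 1.52 CPM (log2 fold change 0.45, SE 0.06, adjusted p = 3.33e-05). SUV420H2, an enzyme for lysine 20 of histone H4, fell from 11.7 ± 0.672 to 6.83 ± 0.983 CPM, a log2 fold change of -0.78. NSD1 and WHSC1, which methylate lysine 36 of histone H3, fell as well (log2 fold change -0.31 for NSD1 and -0.2 for WHSC1), as did SETDB1 (-0.29), an enzyme for lysine 9. SETD3, an actin histidine methyltransferase, fell with -0.21. WHSC1 and PRDM2 lay outside the naming rule for this list and were named after their values were seen. These 6 lower genes and EZH2 were called with every library left out. PRDM2, the other higher gene, was not, and the count of higher genes was 1 without NTC replicate 1, without NTC replicate 3, Set7KD replicate 1 or Set7KD replicate 3. The count was 3 without Set7KD replicate 2. SETD2 averaged 211 ± 2.88 CPM in NTC against 213 ± 14.3 CPM in the knockdown, and SETD5 200 ± 2.07 and 198 ± 3.4 CPM, and neither passed.

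**Figure D5:**
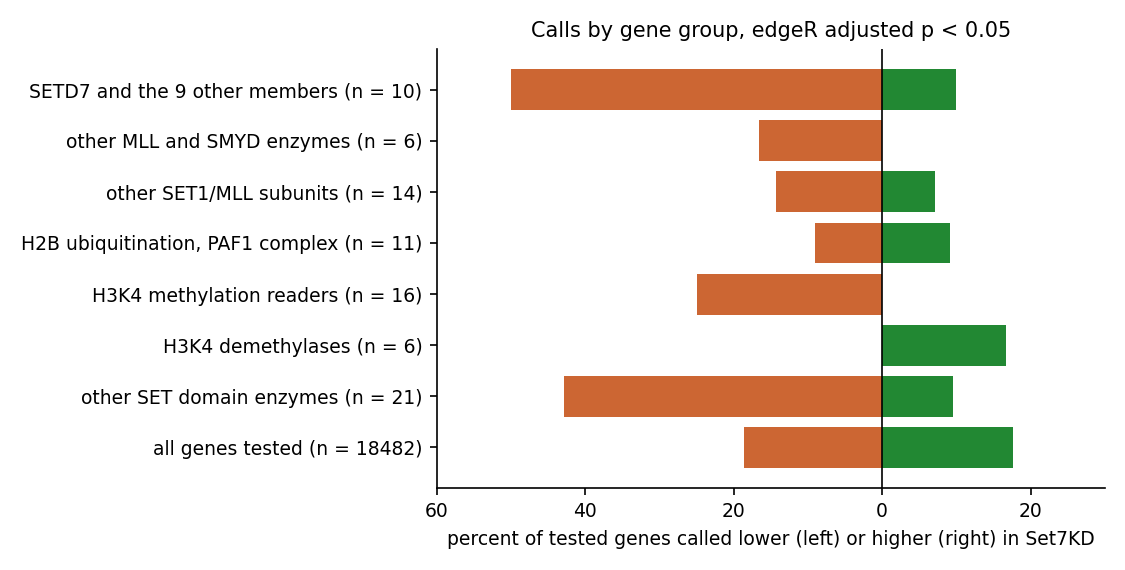
Percent of tested genes called lower (left of 0) or higher (right of 0) in Set7KD by edgeR at an adjusted p under 0.05, for the 10 genes, for the lists around them and for all 18482 genes tested; n is the number of genes tested. The bar of the 10 genes includes SETD7, the knocked-down gene, and all genes have 18.6% lower and 17.6% higher.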

How the data were processed

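Poly-A RNA, purified on Qiagen columns and Dynabeads per the labels' protocols, was made into Illumina mRNA-seq libraries. The authors deposited raw read counts per gene as a single table with Ensembl identifiers and symbols, with BWA, bedtools and hg19 named in the submitters' processing notes. BWA does not splice reads. Strand and treatment of reads with several matches are not given in the sources used here. Every gene had at least 60 counts over the 6 libraries. A row for reads outside genes held 55.6 to 56.1% of counts and was left out of library sizes and tests.

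Counts were tested with edgeR 4.0.16 under R 4.3.3 (robust glmQLFit and glmQLFTest on group alone, after filterByExpr and TMM), adjusted by Benjamini-Hochberg over the 18482 genes tested, and called at an adjusted p under 0.05. The standard error is the absolute log2 fold change over the square root of F. An exact two-sided permutation test of SETD7 CPM gave p = 0.1, the smallest that 3 against 3 allows. On simulated data for this comparison (18373 genes), 100% of genes changed by a fold of 2 and 72% of those changed by 1.3 were called, with 13 false calls. In that simulation only 200 genes were changed, and the libraries were drawn independently. Its rates therefore do not carry over to the real libraries, where 36.2% of genes were called. Within a group every pair of libraries differed beyond sampling noise (chi-square per degree of freedom 2.98 to 9.85).

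Same-numbered libraries of the 2 groups deviated together (r = 0.302, 0.419 and 0.34 over 11151 genes, against -0.358 to -0.038 for different numbers). Deviations from a group mean cancel within the group, so the negative values follow in part from the positive ones. These libraries were taken as pairs on the ground of the positive values, which the labels do not give. A fit with the replicate block was run beside the main one. The edgeR values not marked as from the block are from the fit without it. Alternatives were other normalizations and filters, DESeq2 1.42.0, limma-voom (limma 3.58.1), a threshold of 0.01 and leaving out each library. Leaving out both libraries of a number was added after the data were seen.

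Members, lists and the searched words were chosen with earlier results of these data known. All 10 members were named, with up to 6 called genes of each list by smallest p, uncalled genes with their values, and the 5 genes most like and 3 most opposite to SETD7. Lists were described by counts and medians, with no set test. GENCODE 29, on a later build than the counts, gave lengths and the longest 3′ UTR of each gene.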

Additional observations from a re-analysis of the deposited data

How the results depend on the processing

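SETD7, SMYD3, MLL and ASH2L kept their direction and their side of the threshold under every alternative run, and the replicate block changed the call of no member (5 lower, 1 higher). With the block the counts were 2 lower among the other MLL and SMYD enzymes, 2 higher among the further complex subunits, 2 higher demethylases and 2 lower epithelial markers, and it moved no other count by over 1.5 times. DESeq2 gave 0 higher and 3 lower members, with log2 fold changes of -0.16 for SETD1A, -0.15 for MLL3 and 0.16 for WDR5, all without a call. It gave 0 higher complex subunits, 1 higher SET domain enzyme of other marks, 1 higher neighbour of SETD7, 0 lower epithelial and 1 lower leukocyte marker. With limma-voom WDR5 (0.15) was not called, leaving 0 higher members, and 1 neighbour was higher. With upper-quartile normalization MLL3 (-0.15) was not called, and under a stricter filter of 50 counts 0 epithelial markers were lower. At an adjusted p under 0.01, 0 members were higher and 2 lower, with 0 lower other MLL and SMYD enzymes, 0 higher and 1 lower subunit, 1 lower reader, 0 higher demethylases, 1 higher and 5 lower SET domain enzymes, 1 higher and 0 lower neighbours, 0 lower epithelial and 1 lower leukocyte marker. All genes then gave 2103 higher and 2197 lower. The cause of these changes was not tested.

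With libraries left out, singly or both of a number, SETD1A lay between -0.21 and -0.13, MLL3 between -0.2 and -0.08, WDR5 between 0.13 and 0.18 and RBBP5 between -0.26 and -0.18, with calls lost in some of these fits. SETD1B (-0.04 to 0.03) and ASH1L (-0.07 to 0.03), neither ever called, changed sign: SETD1B to 0.03 without NTC replicate 1, 0.01 without Set7KD replicate 2 and 0.00 without both libraries numbered 1, and ASH1L to 0.00 without Set7KD replicate 3 and 0.03 without both libraries numbered 3. Members called ranged from 0 to 1 higher and 2 to 4 lower. The ranges were 0 to 2 lower for other MLL and SMYD enzymes, 0 to 1 higher and 1 to 3 lower for subunits, 1 to 2 lower for the H2B step, 1 to 4 lower for readers, 0 to 2 higher for demethylases, 1 to 3 higher and 4 to 8 lower for other SET domain enzymes, and 1 to 2 higher and 0 to 3 lower for neighbours. Marker counts ranged from 0 to 3 higher (endothelial), 3 to 5 higher (fibroblast), 3 to 7 higher (smooth muscle and pericyte), 0 to 2 lower (epithelial) and 1 to 2 lower (leukocyte). All genes ranged from 1414 to 3214 higher and 1562 to 3303 lower, lowest without both libraries numbered 1.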

Other observations

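The genes next to SETD7 on chromosome 4 differed in both directions: of 7, 2 were lower and 2 higher, or 57.1% called, beside 36.2% of all genes. RAB33B and MGST2, the nearest protein-coding genes on either side in the RefSeq annotation of GRCh38.p14, both fell. RAB33B, a small GTPase of the Golgi, fell from 34.9 ± 7.34 to 24.0 ± 0.624 CPM (log2 fold change -0.54, SE 0.14, edgeR adjusted p = 0.0155), and MGST2, a microsomal glutathione transferase, from 22.1 ± 3.51 to 16.4 ± 1.79 CPM (-0.43, SE 0.12, adjusted p = 0.0119). CPM of the groups overlapped for MGST2. With a library left out, RAB33B was called in 2 of the 6 fits and MGST2 in 3. The edgeR adjusted p of RAB33B was highest, at 0.0803, without Set7KD replicate 2. Lower genes among the 7 neighbours numbered 0 without NTC replicate 1, Set7KD replicate 1 or Set7KD replicate 3, 3 without NTC replicate 3 and 3 with the replicate block. NAA15, the auxiliary subunit of an N-terminal acetyltransferase, rose from 140 ± 13.2 to 190 ± 8.8 CPM (log2 fold change 0.45, SE 0.07, adjusted p = 9.18e-05) and kept its call with each library left out. NDUFC1, a respiratory complex I subunit whose gene overlaps NAA15, rose from 56.1 ± 2.58 to 63.8 ± 5.05 CPM (adjusted p = 0.0446), a call made in 2 of the 6 fits with a library left out. ELF2 had 53.6 ± 5.37 and 53.8 ± 0.873 CPM and did not pass.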
